A study of Mus musculus with 6 samples.

Results

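The NF-kB module described here holds 32 named genes of 53458 genes summed from the deposited transcript tables. The genes were given by name, by a rule that uses no expression value, but they were chosen with earlier results of these data known. By role, the list comprises 5 genes for the transcription factor subunits, 4 inhibitors and feedback regulators, 2 adaptors of survival signalling, 8 cytokines, 8 chemokines and 5 surface proteins and enzymes. All 32 symbols matched 1 gene each in GENCODE M21, and none had a near-identical copy elsewhere among the annotated transcripts (95% identity or more across 50% or more of a transcript). Gene positions are given on build GRCm38.

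The libraries were bulk RNA sequencing of acute myeloid leukemia blasts sorted from the bone marrow of transplanted leukemic C57/BL6 mice. All 6 libraries carried Cebpa-/p30, that is, 1 lost allele of the myeloid transcription factor gene Cebpa and 1 allele that yields only its shorter p30 protein. The WT group (3 libraries) had unmutated Asxl1, which encodes a chromatin regulator often mutated in myeloid leukemia, and the G643W group (3 libraries) was homozygous for the Asxl1 substitution, Asxl1 G643W/G643W. The sort took CD45.2+ cells that lacked Ter119, B220 and CD3 and were low for Mac1 and Gr1. The labels state neither the age of the mice nor whether each library traces to a separate primary leukemia, so p-values here cover only how far these libraries differ from each other. In bulk RNA, fewer cells of a type and less RNA per cell cannot be told apart.

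NF-kB is a family of dimeric transcription factors that is held in the cytoplasm by inhibitor proteins until receptors for TNF, IL-1, CD40 or microbial products activate the IkB kinases. Freed dimers then switch on cytokines, chemokines and adhesion molecules, together with their own inhibitors, which close the loop. Mature myeloid cells, monocytes and macrophages above all, are strong producers of these products, and the pathway is also active in leukemic stem and progenitor cells.

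Library totals ran from 61167075 to 101189225 estimated reads, and 20654 genes passed the filter on low counts. The libraries differed widely in maturation markers within each genotype. The summed level of 12 neutrophil markers was 2723, 13540 and 78970 TPM (a level scaled to the library and corrected for transcript length) in WT libraries 1, 2 and 3 and 16220, 185300 and 114500 TPM in the G643W libraries. Below, values are always given in the order of libraries 1, 2 and 3. The 10 macrophage markers summed to 327, 191 and 171 TPM against 161, 108 and 221 TPM, and 12 monocyte markers to 9229, 6588 and 8816 TPM against 5344, 9016 and 9136 TPM. Adgre1 and Cd68 held most of the macrophage sum, and Lyz2 and Ly6c2 most of the monocyte sum. Lyz2 alone read 5857, 4301 and 4713 TPM against 1749, 6336 and 5687 TPM. Over the tested markers of each list, the median log2 difference (G643W minus WT) was -1.32 for monocytes, -1.43 for macrophages and 1.66 for neutrophils. The 12 dendritic cell markers summed to 56.3, 89.9 and 29.7 TPM in WT against 20.5, 9.48 and 16.2 in G643W, without overlap. Cd209a and Clec10a held most of the WT sums, while others, such as Itgax, Xcr1 and Zbtb46, overlapped between genotypes. The median log2 difference of the tested dendritic cell markers was -1.16. Of the genes for the gated proteins, Itgam (Mac1) read 57.6, 46.8 and 199 TPM against 61.8, 321 and 318 TPM, and Ly6g, a Gr1 antigen, 6.14, 26.8 and 294 TPM against 10.8, 697 and 245 TPM. The 9 blast markers summed to 1094, 2700 and 4159 TPM in WT against 5847, 930 and 2439 in G643W. Of these, Kit read 2.12, 11.8 and 18.0 TPM against 35.9, 4.44 and 5.11 TPM, and Cd34 was lower in every G643W library, at 64.7, 94.0 and 42.7 TPM against 38.3, 5.82 and 19.9 TPM, the 1 blast marker with an unadjusted p under 0.05. Of the excluded T cell lineage, the defining gene Cd3e was near 0, at most 0.219 TPM. Natural killer cell sums reached 157 TPM through Nkg7, while Ncr1 stayed at or below 0.203 TPM. Sums of T cell, B cell, mast cell and stromal markers overlapped between genotypes, with highest library sums of 8.86, 16.7, 226 and 30.9 TPM. Erythroid sums were 1.84, 1.54 and 1.82 TPM in WT against 3.45, 2.97 and 9.31 in G643W. None of the markers passed the threshold between genotypes. Gene totals do not show the substituted base, so the Asxl1 genotype itself was not checked here.

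1 library stood apart from the other 5. WT library 1 held the highest TPM, and the highest CPM, each for 21 of the 28 members with enough reads for a test, or 75.0%, while it held the highest TPM for 19.4% of all genes tested. For 11 members, 39.3%, it was at least 2-fold above the next library in TPM, against 3.1% of all genes. The median level of the members in it, relative to each gene's mean over the libraries, was 1.43 on the log2 scale, and the medians of the other libraries lay between -0.46 and -0.06. WT library 1 also held the highest TPM for 5 of the 10 macrophage markers and 7 of the 12 monocyte markers, for 3 of the 12 dendritic cell markers and for 0 of the 12 neutrophil markers. This library had the lowest neutrophil marker sum. The part of these cells in the members' levels was not tested.

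Across these 28 members, none passed an adjusted p of 0.05 in edgeR's quasi-likelihood test. Over all genes tested, 25 did, or 0.121%. DESeq2 called 1 member, Traf1, of the 25 to which it gave an adjusted p (Cxcl10, Ccl4 and Ccl5 had none), and limma on log2 TPM called 0. Among all genes, DESeq2 called 427 of the 19310 to which it gave an adjusted p. Adjusted p-values of the members in edgeR ran from 0.409 to 0.984. At an unadjusted p under 0.05, 4 members were lower in G643W (Nfkb2, Traf1, Cxcl16 and Icam1), where 5.78% of all genes tested were, and 2 were higher (Tnf and Cxcl2), where 3.89% of all genes were. By CPM (read counts scaled to a common library size), 3 members, Bcl3, Traf1 and Icam1, had every G643W library below every WT library. That is 10.7% of those tested, against a background of 8.89%. Tnf was the 1 member with every G643W library above every WT library, against a background of 7.05%. The log2 difference, G643W minus WT, was below 0 for 21 of 28 members against 50.8% of all genes, with a median of -0.61 for the members and -0.01 for all genes tested. Without WT library 1, the members' median log2 difference was 0.28 in place of -0.61, 12 of 28 members were below 0 and 16 above, and 9 changed sign.

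**Figure D1:**
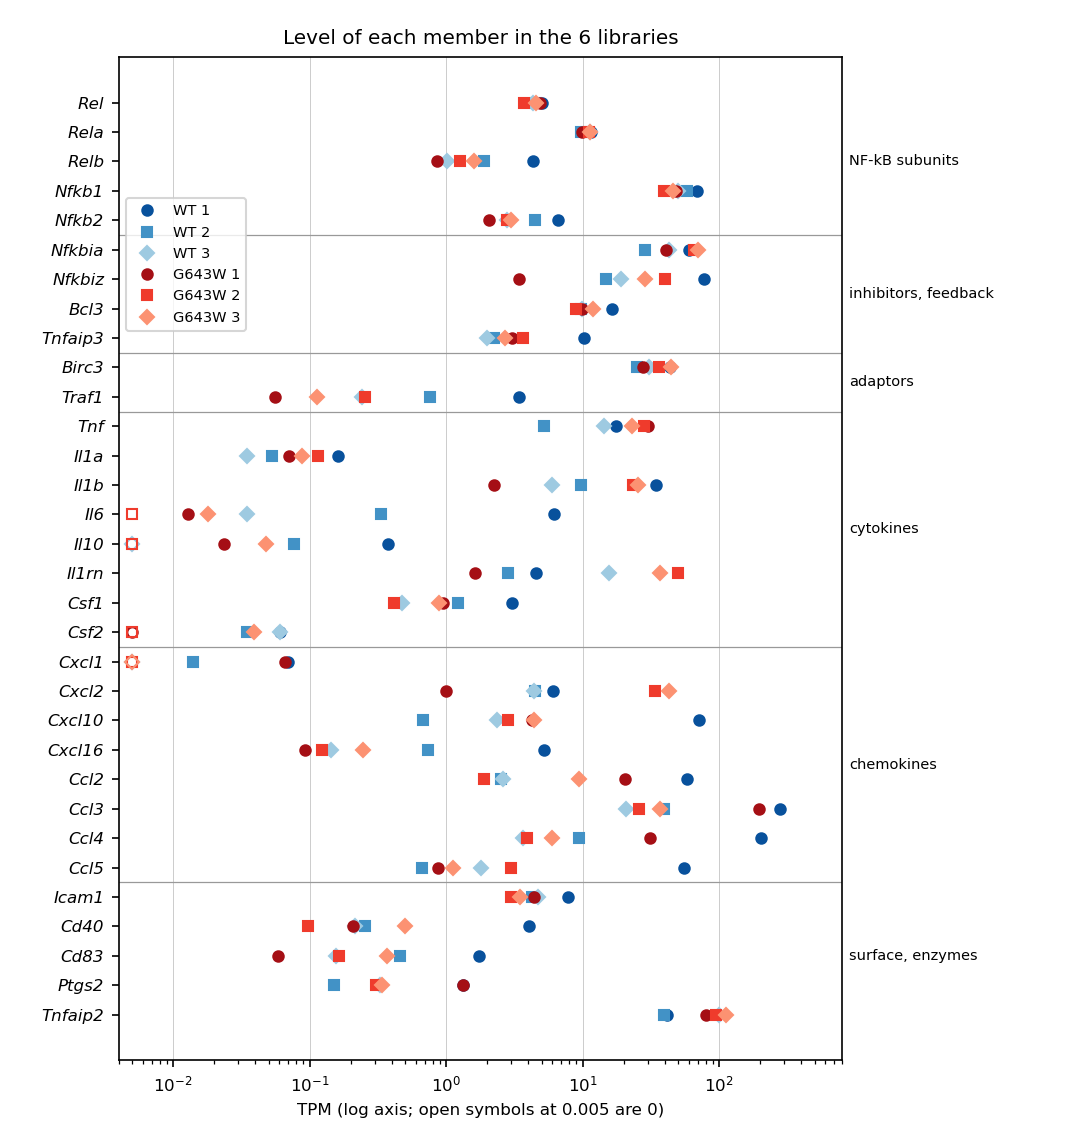
Level of the 32 members in TPM on a log axis, 1 row per gene grouped by role, 1 symbol per library (blue WT, red G643W; open symbols are values of 0). WT library 1 lies at the right-hand end of most rows, and the G643W symbols of Tnf all lie to the right of the WT symbols.

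**Figure D2:**
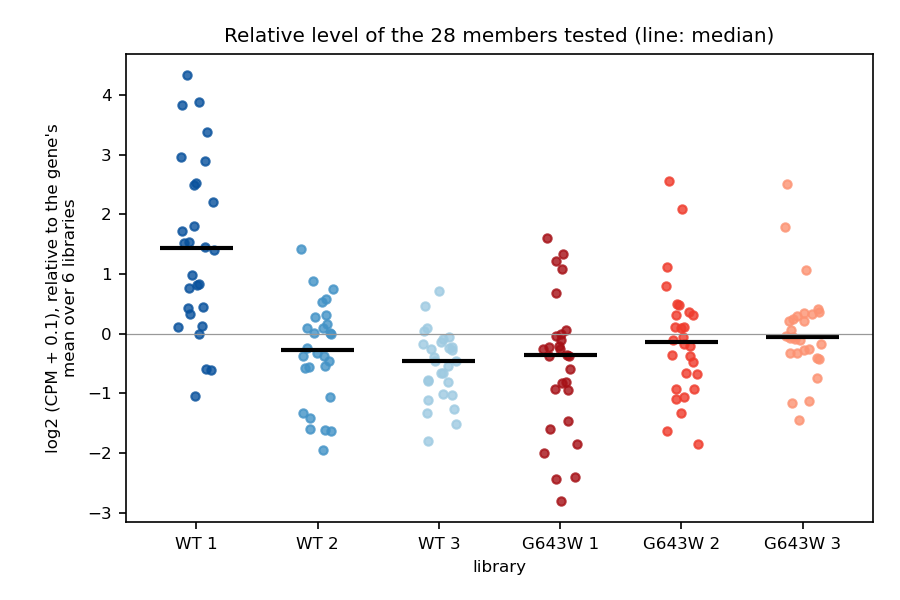
Each point is 1 of the 28 tested members, as log2 (CPM + 0.1) relative to that gene's mean over the 6 libraries, and the black line is the median. The median of WT library 1 is 1.43 and those of the other 5 libraries lie between -0.46 and -0.06.

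Promoter letters were examined for the kB consensus that NF-kB dimers bind (3 G, a purine, any base, A or T, 2 pyrimidines, 2 C), read on both strands of the RefSeq promoters, which span 250 bases before to 50 bases after the annotated start. RefSeq promoters of build GRCm38.p6 were matched for 22 members and not for Ccl2, Ccl4, Ccl5, Nfkbiz, Relb, Nfkb1, Cd40, Cd83, Cxcl16 and Il10. A match occurred for 10 of the 22 members, or 45.5% (Nfkb2, Rel, Nfkbia, Bcl3, Tnfaip3, Csf1, Il6, Cxcl1, Cxcl2 and Cxcl10), and for 1388 of all 27025 genes in the table, or 5.14%. Counted by promoter, the shares were 44.4% and 4.51%. The following stretches show the consensus in 6 members described below, with matches in capitals, each read 5′ to 3′ along the strand of its gene. Overlapping matches, also on opposite strands, form 1 run of capitals.
Nfkb2 (chr19:46304688-46304717, plus strand): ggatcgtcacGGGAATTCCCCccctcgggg
Bcl3 (chr7:19822734-19822763, minus strand): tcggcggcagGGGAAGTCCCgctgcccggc
Tnfaip3 (chr10:19015411-19015547, minus strand): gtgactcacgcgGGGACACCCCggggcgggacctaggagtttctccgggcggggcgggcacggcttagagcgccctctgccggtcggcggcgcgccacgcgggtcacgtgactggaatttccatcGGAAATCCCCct
Csf1 (chr3:107760584-107760653, minus strand): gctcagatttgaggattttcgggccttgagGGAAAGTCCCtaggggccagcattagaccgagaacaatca
Cxcl2 (chr5:90903772-90903842, plus strand): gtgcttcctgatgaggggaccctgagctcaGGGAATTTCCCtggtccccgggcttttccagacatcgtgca
Cxcl10 (chr5:92348953-92349078, minus strand): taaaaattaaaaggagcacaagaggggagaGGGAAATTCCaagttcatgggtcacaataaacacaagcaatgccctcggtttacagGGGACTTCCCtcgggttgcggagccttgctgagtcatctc
Nfkb2 and Cxcl2 thus match on both strands within 1 stretch, Cxcl10 and Tnfaip3 each show 2 separate matches, and the match of Bcl3 lies just after its annotated start. The window of Nfkb2 shows the first of its matches. The Nfkb2 and Bcl3 matches lie inside exons of these genes in GENCODE M21. A match is a run of letters, and binding was not measured. Members with the consensus did not all share a direction. By estimate Nfkb2, Rel, Bcl3, Tnfaip3, Csf1 and Cxcl10 were lower in G643W, and Nfkbia and Cxcl2 were higher, while Il6 and Cxcl1 were not tested. Tnf, Traf1 and Icam1, whose promoters were in the table, held no match within this window.

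Among the transcription factor subunits, none of the 5 genes passed the threshold, and all 5 estimates were below 0, with a median log2 difference of -0.35. Nfkb1 (chr3:135584655-135691547), which encodes the p105 precursor of the p50 subunit, was the most abundant subunit gene, at 69.0, 58.5 and 50.2 TPM in WT against 48.3, 39.3 and 46.1 in G643W. The TPM of the genotypes did not overlap, with an exact permutation p of 0.1 (two-sided), the smallest that 3 libraries against 3 allow. By CPM they did overlap, at 285.9, 257.9 and 179.8 in WT against 184.7, 196.3 and 187.9 in G643W. That TPM includes the 528-base transcript Nfkb1-205, which held 25.8%, 29.6% and 37.4% in WT and 29.1%, 24.1% and 26.5% in G643W. Nfkb1-205 held 5.03% of the WT and 3.93% of the G643W reads of the gene. The estimate was a log2 difference of -0.35 ± 0.24 (SE, n = 3 per group, edgeR adjusted p = 0.598). Nfkb2 (chr19:46304320-46312385) encodes p100, the precursor of p52 in the non-canonical branch of the pathway. It stood at 6.59, 4.51 and 2.80 TPM in WT against 2.07, 2.77 and 2.98 in G643W, with WT library 3 within the G643W range. The difference was -0.93 ± 0.36 on the log2 scale (edgeR adjusted p = 0.503). Exons of Nfkb2 overlap those of Psd on the other strand, which averaged 280 reads per library against 2129 for Nfkb2.

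Relb (chr7:19606217-19629438), the partner of p52, was lower by estimate in G643W, at 0.860, 1.27 and 1.61 TPM against 4.30, 1.89 and 1.02 TPM in WT. WT library 1 was 2.27-fold above the next library and WT library 3 lay inside the G643W range. The log2 difference of -1.16 ± 0.57 (edgeR adjusted p = 0.537) became -0.50 without WT library 1. Rela and Rel encode the transactivating subunits of the canonical branch and were the steadiest members. Rela lay between 9.78 and 11.6 TPM in all libraries, a ratio of 1.18 between the highest and the lowest, and Rel between 3.75 and 5.08 TPM, a ratio of 1.35. Their log2 differences were -0.11 (95% interval -0.54 to 0.32) for Rela and -0.17 (-0.58 to 0.25) for Rel.

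Among inhibitors and feedback regulators, none of 4 genes passed the threshold, and 3 of the 4 estimates were below 0. Nfkbia (chr12:55489410-55492647), encoding IkB alpha, the inhibitor that NF-kB itself induces, read 60.6, 28.7 and 42.6 TPM in WT against 41.0, 65.5 and 70.4 in G643W. G643W libraries 2 and 3 were the highest, and G643W library 1 fell within the WT range. Its log2 difference was 0.31 ± 0.33 (edgeR adjusted p = 0.718). Tnfaip3 (chr10:19000910-19015657) encodes A20, a ubiquitin-editing brake on NF-kB signalling. It read 10.2, 2.25 and 2.00 TPM in WT against 3.05, 3.68 and 2.70 in G643W, so every G643W library lay above WT libraries 2 and 3 and below WT library 1. With all libraries the log2 difference was -0.60 ± 0.56 (edgeR adjusted p = 0.680), and without WT library 1 it was 0.38.

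Bcl3 (chr7:19808462-19822770) encodes an IkB family protein that works in the nucleus with p50 and p52 dimers. Its CPM values were 27.5, 16.5 and 14.5 in WT and 11.9, 12.1 and 14.4 in G643W. By CPM the groups did not overlap, but the lowest WT and the highest G643W library nearly met. In TPM they did overlap, at 16.4, 9.81 and 9.82 TPM against 9.94, 8.89 and 11.9 TPM. Between genotypes the log2 difference was -0.61 ± 0.31 (edgeR adjusted p = 0.542). Nfkbiz (chr16:55811375-55838899), encoding the nuclear inhibitor IkB zeta, stood at 132.9, 18.3 and 27.8 CPM in WT against 21.4, 47.7 and 44.2 in G643W, a 7.27-fold range with the highest value in WT library 1 and the lowest in WT library 2. In TPM it read 77.5, 14.8 and 19.1 in WT and 3.40, 40.2 and 28.7 in G643W, a 22.8-fold range with the lowest value in G643W library 1. The 188-base transcript Nfkbiz-206 held 75.0% to 84.0% of that TPM in 5 libraries on at most 76.7 reads, and it had 0 reads in G643W library 1. The estimated log2 difference was -0.66 ± 0.74 (edgeR adjusted p = 0.735), and it was 0.71 without WT library 1.

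Traf1 had the lowest p of all members. Traf1 (chr2:34941750-34961772) encodes a TNF receptor associated factor that joins survival signalling and is itself an NF-kB target. By CPM it stood at 10.9, 3.67 and 1.18 in WT and 0.292, 0.641 and 0.418 in G643W, so every G643W library was below every WT library. In TPM the groups touched, at 3.42, 0.760 and 0.244 TPM against 0.0560, 0.255 and 0.113 TPM, with WT library 3 below G643W library 2. The 628-base transcript Traf1-205 held 69.2% of the TPM in G643W library 2 on 13.6 reads and had 0 reads elsewhere. The log2 difference was -3.53 ± 0.87, or 0.0864 of the WT level (edgeR adjusted p = 0.409). DESeq2 called it lower, with a log2 difference of -3.50 and an adjusted p of 0.00129, where DESeq2 called 1.36% of all genes lower. Without WT library 1 the difference was -2.43 (edgeR adjusted p = 0.608). In TPM, WT library 1 was 4.5-fold above the next library, and the 319-base transcript Traf1-204 held 25.8% of its TPM on 12.9 reads. Leaving out WT library 1 moved the G643W level from 0.0864 to 0.186 of the WT level, and the direction stayed the same. Birc3 (chr9:7848699-7873186), encoding the ubiquitin ligase cIAP2, overlapped between genotypes at 43.7, 24.9 and 30.7 TPM against 27.5, 36.4 and 44.6 TPM. Its log2 difference was -0.16 ± 0.29 (edgeR adjusted p = 0.834).

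Among the cytokines, 5 of 8 genes were tested, none passed the threshold, and 4 of the 5 estimates were above 0. Tnf (chr17:35199381-35202007), the prototype activator and product of the pathway, read 17.4, 5.22 and 14.4 TPM in WT against 30.1, 28.1 and 22.8 in G643W. The groups did not overlap in TPM or in CPM, where WT read 53.8, 17.8 and 45.1 and G643W 86.6, 94.1 and 68.4. The means were 12.4 ± 6.36 TPM in WT and 27.0 ± 3.76 TPM in G643W (SD, n = 3). Its log2 difference was 1.09 ± 0.40, a 2.13-fold higher level (edgeR adjusted p = 0.498), and without WT library 1 it was 1.40. Tnf was 1 of 7 tested members for which WT library 1 did not hold the highest value.

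The IL-1 genes varied widely between libraries of the same genotype. Il1b (chr2:129364570-129371139), the secreted inflammatory cytokine, read 34.6, 9.79 and 5.98 TPM in WT against 2.24, 23.5 and 25.7 in G643W. Both genotypes held high and low libraries, and the log2 difference was 0.06 ± 0.95 (edgeR adjusted p = 0.984). Il1rn (chr2:24336853-24351494), encoding the receptor antagonist that blocks IL-1, read 4.57, 2.86 and 15.7 TPM in WT against 1.64, 49.8 and 37.0 in G643W. G643W libraries 2 and 3 were the highest and G643W library 1 the lowest of all. Between genotypes the log2 difference was 1.96 ± 1.12 (edgeR adjusted p = 0.564). Il1a was near the detection limit, between 0.0345 and 0.162 TPM, and its exons overlap those of the other-strand gene Gm14023, which drew more reads (66.6 against 21.4 per library on average).

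Csf1 (chr3:107741048-107760469), the growth factor of monocytes and macrophages, read 3.05, 1.23 and 0.472 TPM in WT against 0.949, 0.416 and 0.884 in G643W. The log2 difference of -0.999 ± 0.70 (edgeR adjusted p = 0.607) shrank to -0.03 without WT library 1. Il6, Il10 and Csf2 had too few reads for the test. Il6 (chr5:30013114-30019981), a product of activated myeloid and stromal cells, received 656, 32 and 3 reads in WT and 3, 0 and 1 reads in G643W, so nearly all of its reads came from WT library 1. Il10, an anti-inflammatory cytokine, received 56, 12 and 0 reads against 3, 0 and 7. Csf2, which encodes GM-CSF, received at most 5 reads in any library. A count of 0 allows up to 3 reads, so absence was not shown for any of them.

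Chemokine levels spread widely over the libraries, by CPM from 13.2-fold between the lowest and the highest for Ccl3 to 75.6-fold for Ccl5. Of 8 genes 7 were tested, 6 of the 7 estimates were below 0 with a median of -2.44, and none passed the threshold. Their TPM summed to 677, 57.7 and 35.8 in WT and 254, 71.5 and 101 in G643W. The sum was thus highest in library 1 of each genotype, but in G643W library 1 Ccl3 alone held 197 of the 254 TPM. Of the tested chemokines within G643W, Ccl3, Ccl4 and Ccl2 were highest in library 1, and Cxcl2, Cxcl16 and Ccl5 were lowest in it. Ccl3 (chr11:83647844-83649355), which attracts monocytes through Ccr1, was the most abundant of all 32 members by mean. It read 279, 39.2 and 20.8 TPM in WT against 197, 26.1 and 37.1 in G643W. The first library of each genotype was thus far above the other 2, and the log2 difference was -0.47 ± 1.08 (edgeR adjusted p = 0.876). Ccl4 (chr11:83662584-83664683), a related chemokine whose gene lies 13.2 kb from Ccl3, showed the same order of its first libraries. It read 202, 9.43 and 3.68 TPM in WT against 31.0, 3.92 and 6.0 in G643W, with a log2 difference of -2.46 ± 1.48 (edgeR adjusted p = 0.572).

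Ccl2 (chr11:82035571-82037453), the main ligand of the monocyte receptor Ccr2, read 57.9, 2.53 and 2.60 TPM in WT against 20.5, 1.89 and 9.34 in G643W. Ccl5 (chr11:83525778-83530518), a ligand of Ccr1, read 55.5, 0.661 and 1.80 TPM in WT against 0.878, 2.99 and 1.12 in G643W. Cxcl10 (chr5:92346638-92348889), an interferon-induced ligand of Cxcr3, read 71.1, 0.677 and 2.37 TPM in WT against 4.23, 2.82 and 4.39 in G643W. By CPM Cxcl10 stood at 72.5, 1.22 and 1.93 in WT and 2.54, 4.79 and 6.63 in G643W. Its TPM includes the 344-base retained-intron transcript Cxcl10-203, which held 40.3% in WT library 1 and 0% in WT library 2. In TPM, WT library 1 exceeded the next library 2.83-fold for Ccl2, 18.5-fold for Ccl5 and 16.2-fold for Cxcl10. The log2 differences of -1.02 ± 1.29, -3.48 ± 1.59 and -2.44 ± 1.46 (edgeR adjusted p of 0.763, 0.531 and 0.571) all turned positive without that library, at 1.81, 0.43 and 1.56. Those of Ccl3 and Ccl4 did too, at 1.34 and 0.87. With WT library 1 left out, Cxcl10 was at 2.95 times the WT level (edgeR adjusted p = 0.608).

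Cxcl16 and Cxcl2 departed from that pattern. Cxcl16 (chr11:70453983-70459984), a membrane-bound chemokine and scavenger receptor, read 5.24, 0.739 and 0.144 TPM in WT against 0.0931, 0.124 and 0.248 in G643W. WT library 3 lay inside the G643W range. The estimated log2 difference was -3.22 ± 1.14 (edgeR adjusted p = 0.493) and remained below 0, at -1.30, without WT library 1. Its exons overlap those of Zmynd15 on the other strand, which averaged 48.7 reads against 284 for Cxcl16. Cxcl2 (chr5:90903871-90905938), a neutrophil attractant that signals through Cxcr2, was the member with the largest positive difference. It read 6.10, 4.44 and 4.41 TPM in WT, within a narrow range, and 1.00, 33.7 and 43.2 TPM in G643W, where library 1 was the lowest of all 6 and libraries 2 and 3 the highest. Its TPM includes the 397-base retained-intron transcript Cxcl2-204, which held 36.1% in WT library 2, 48.7% in WT library 3 and 0% in G643W library 1. By CPM Cxcl2 stood at 6.71, 6.87 and 4.93 in WT and 1.80, 43.7 and 58.3 in G643W. The log2 difference was 2.49 ± 1.01 (edgeR adjusted p = 0.511). Without G643W library 1 it was 3.13, with an edgeR adjusted p of 0.0421, in a fit that called 16 of 21644 genes, or 0.0739%, and without G643W library 3 it was 1.89. Cxcl1, the neighbour of Cxcl2 at a distance of 10.8 kb and a ligand of the same receptor, received at most 11 reads in any library and was not tested.

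The 2 libraries with high Cxcl2 and Il1rn were those with the highest neutrophil marker sums, at 185300 and 114500 TPM. The receptor gene Cxcr2, a neutrophil gene named here after its values were seen, read 1.87, 6.58 and 35.5 TPM in WT against 3.89, 91.5 and 74.6 in G643W. WT library 3 had the third highest neutrophil sum, 78970 TPM, the third highest Il1rn and no high Cxcl2. The part of neutrophils in the Cxcl2 and Il1rn levels was not tested. For the chemokines high in WT library 1 and G643W library 1, the macrophage marker sums were 327 and 161 TPM, the highest and the second lowest of the 6, and their part was not tested either.

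**Figure D3:**
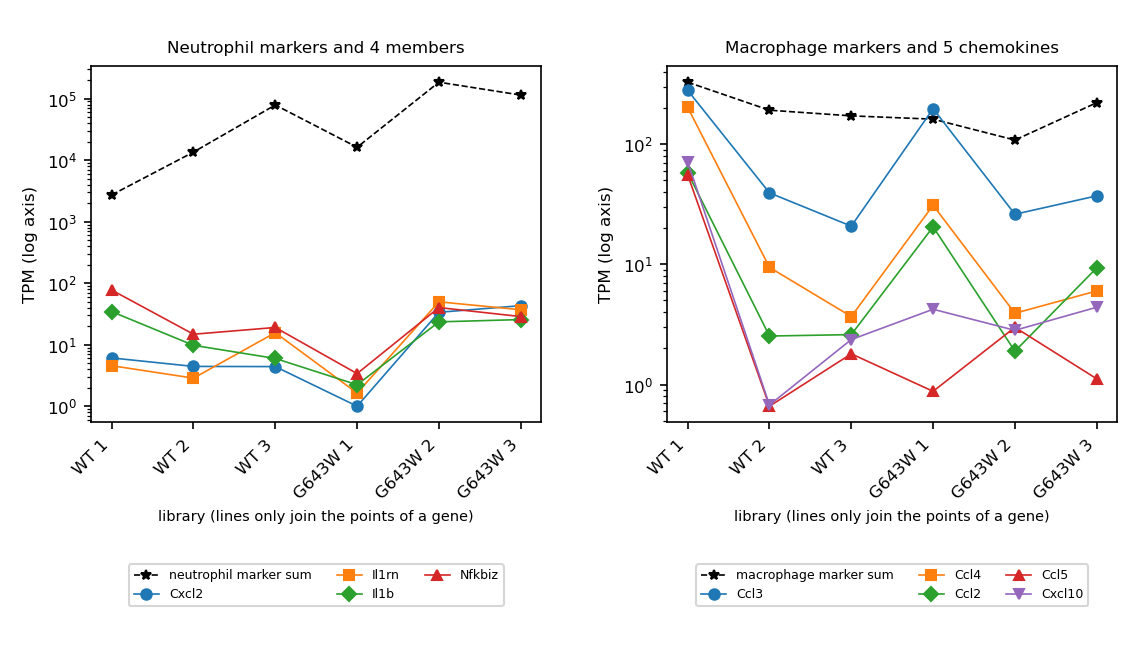
TPM on a log axis in each of the 6 libraries, with lines joining the points of 1 gene. The left panel shows the neutrophil marker sum with Cxcl2, Il1rn, Il1b and Nfkbiz, and the right panel the macrophage marker sum with 5 chemokines, where WT library 1 is the highest for each chemokine and Ccl3, Ccl4 and Ccl2 are next highest in G643W library 1.

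Among surface proteins and enzymes, none of 5 genes passed the threshold, and 4 of 5 estimates were below 0. Icam1 (chr9:21015985-21028817), the adhesion molecule bound by leukocyte integrins, stood at 43.7, 26.4 and 26.3 CPM in WT against 22.9, 17.7 and 18.3 in G643W. Every G643W library was below every WT library by CPM, and in TPM WT library 2, at 4.28, lay just below G643W library 1, at 4.42. Its log2 difference was -0.71 ± 0.28, or 0.611 of the WT level (edgeR adjusted p = 0.503), and it was -0.43 without WT library 1. Tnfaip2 (chr12:111442469-111455018), a TNF-induced gene, read 41.7, 39.4 and 100.5 TPM in WT against 79.9, 94.2 and 111.9 in G643W. In TPM WT library 3 lay within the G643W range, but by CPM it was the highest of all, at 273.9 against 191.8, 253.8 and 254.1 in G643W. The 398-base transcript Tnfaip2-205 held 39.7% to 48.3% of the TPM on 5.22% of the WT and 6.42% of the G643W reads. For Tnfaip2 the log2 difference was 0.37 ± 0.34 (edgeR adjusted p = 0.676).

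Cd40, the receptor through which T cells activate antigen-presenting cells, read 4.03 TPM in WT library 1 and between 0.0976 and 0.501 TPM in the other 5. Cd83, a marker of activated dendritic cells, read 1.75 TPM in WT library 1 and between 0.0586 and 0.462 TPM elsewhere. Their log2 differences of -1.94 ± 0.92 and -2.06 ± 1.01 (edgeR adjusted p of 0.534 and 0.538) became -0.18 and -0.78 without that library. The dendritic cell marker sum, which was lower in every G643W library, was highest in WT library 2 and not in WT library 1. Most of that sum was Cd209a and Clec10a, at 44.7 and 36.2 TPM in WT library 2. Of the 12 markers, 5 were highest in WT library 2 and 3 in WT library 1, the latter being Batf3, Ccr7 and Fscn1. The part of dendritic cells in the Cd40 and Cd83 levels was not tested. Ptgs2, encoding the inducible prostaglandin synthase COX-2, was high in library 1 of both genotypes, at 1.32 and 1.34 TPM, and between 0.150 and 0.339 TPM in the other 4. The estimate for Ptgs2 was -0.14 ± 0.87 (edgeR adjusted p = 0.957).

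**Figure D4:**
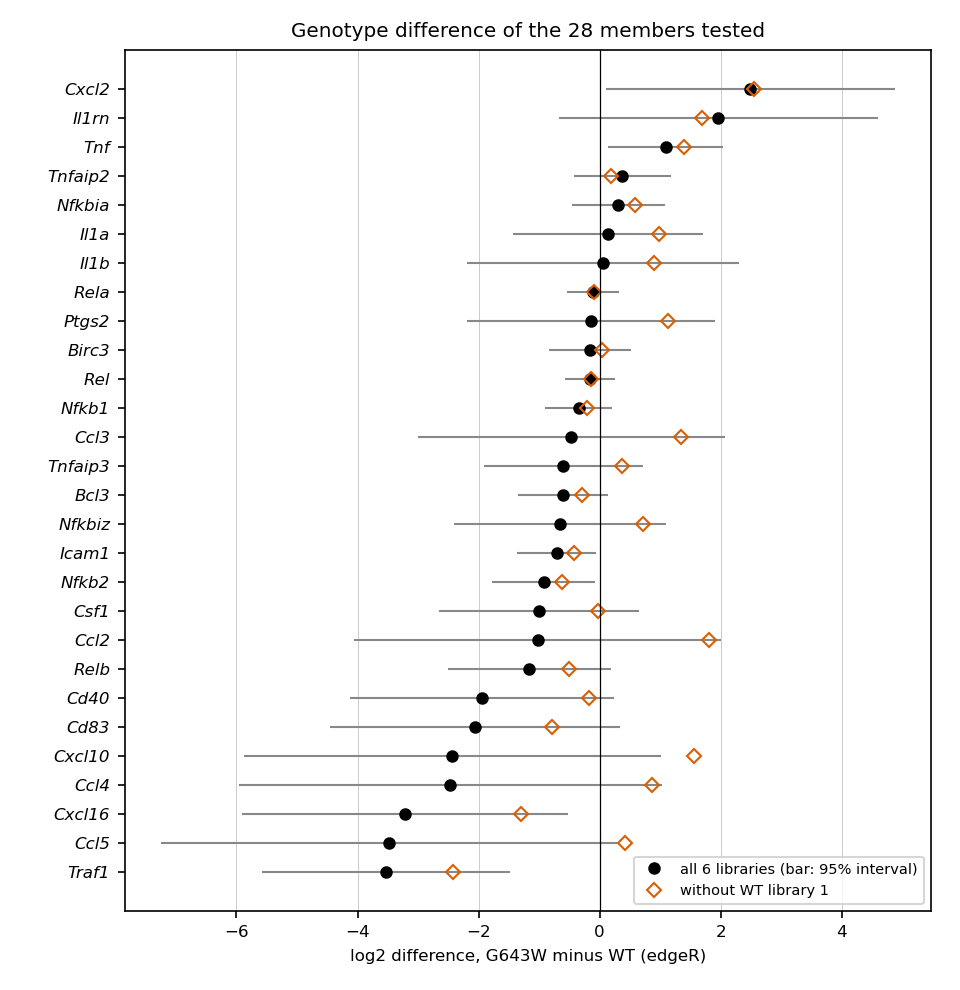
Log2 difference, G643W minus WT, of the 28 tested members from edgeR, with 95% intervals (filled points, all 6 libraries), and the same difference without WT library 1 (open diamonds). Traf1, Cxcl16, Nfkb2 and Icam1 stay below 0 and Tnf and Cxcl2 above 0 in both, while 5 chemokines move from below to above 0.

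Around these members, 73 further genes of the pathway were followed, including kinases, receptors, ubiquitin regulators and other targets. All 73 were tested and none passed the threshold. Their median log2 difference was -0.04, and 39 of 73 were below 0. At an unadjusted p under 0.05, 6 were lower and 6 higher in G643W, 8.22% each way, against 5.78% and 3.89% of all genes. By CPM 10 did not overlap and were lower, 13.7% against the background of 8.89%, and 5 did not overlap and were higher, beside a background of 7.05%.

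The lowest p among them belonged to Tnfsf9, encoding the 4-1BB ligand, at 4.97, 1.52 and 0.891 TPM in WT against 0.458, 0.208 and 0.385 in G643W. The groups did not overlap, and the log2 difference was -2.92 ± 0.73 (edgeR adjusted p = 0.409), or -1.95 without WT library 1. Tnip3, encoding an A20-binding protein, read 4.46, 3.88 and 0.962 TPM in WT against 0.251, 0.149 and 0.659 in G643W, a log2 difference of -3.02 ± 0.89 (edgeR adjusted p = 0.464). DESeq2 called these 2 genes lower, with adjusted p of 0.00257 and 0.018, where it called 1.36% of all genes lower. Il10ra, a subunit of the IL-10 receptor, read 21.3, 8.32 and 6.52 TPM against 4.24, 2.76 and 6.01 TPM, a log2 difference of -1.55 ± 0.48 (edgeR adjusted p = 0.481), or -0.91 without WT library 1. Ccr2, the receptor of Ccl2 and a monocyte gene, read 78.3, 90.3 and 56.9 TPM against 34.9, 13.9 and 49.99 TPM, a log2 difference of -1.34 ± 0.45 (edgeR adjusted p = 0.493). Both receptors were lower in every G643W library. Beside them, 5 of the 12 monocyte markers were lower at an unadjusted p under 0.05, where 5.78% of all genes tested were. Of these 5, Fn1 had the largest log2 difference at -2.66. The part of monocytes in the levels of the 2 receptors was not tested. Tnfrsf11a, the receptor RANK, was lower by estimate at -1.53 ± 0.62 (edgeR adjusted p = 0.507), with overlapping groups, or -0.93 without WT library 1.

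On the other side, Il1r2, the decoy receptor that binds IL-1 without signalling, read 13.4, 13.9 and 30.2 TPM in WT against 42.1, 53.0 and 57.8 in G643W. Every G643W library was above every WT library, and the log2 difference was 1.31 ± 0.33 (edgeR adjusted p = 0.414). Ier3, an immediate early target of NF-kB, read 20.0, 5.56 and 15.1 TPM in WT against 37.0, 44.9 and 40.1 in G643W, also without overlap. Its log2 difference was 1.52 ± 0.41 (edgeR adjusted p = 0.454). Ebi3, a subunit of IL-27, read 15.3, 17.8 and 20.1 TPM against 22.6, 55.2 and 44.2 TPM, a log2 difference of 1.14 ± 0.37 (edgeR adjusted p = 0.488). Tab3, an adaptor of the TAK1 kinase upstream of the IkB kinases, was higher by estimate at 0.71 ± 0.27, and Cxcr3, the receptor of Cxcl10, at 2.37 ± 0.86 (edgeR adjusted p of 0.498 and 0.494). Levels of Cxcr3 were low, at 0.239, 0.114 and 0.304 TPM in WT against 0.195, 1.24 and 2.06 in G643W, with G643W library 1 within the WT range. Ikbkb, the catalytic kinase subunit that frees canonical dimers, was named after its values were seen and read 72.7, 51.9 and 48.7 TPM against 55.0, 42.1 and 44.5 TPM. Ikbkb differed by a log2 value of -0.45 ± 0.22 (edgeR adjusted p = 0.537).

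The transcripts behind the members' totals were compared as shares of each gene's TPM, for genes with at least 2 annotated transcripts and transcripts with at least 200 reads over the libraries. Of 73 such transcripts from 23 members, 18 had shares that did not overlap between genotypes, 24.7% against 16.0% of 42821 transcripts of all genes. These shares are estimates by Salmon, transcripts of a gene are not independent, and no test was run on them. Relb-201 held 34.6%, 21.5% and 30.6% of Relb in WT and 0% in each G643W library, from 595, 167 and 120 estimated reads in WT and 0 in G643W. Relb-203, of nearly the same length (2203 against 2200 bases), was given 513, 444 and 116 reads in WT and 159, 116 and 297 in G643W. Reads are allocated between such transcripts by estimate, so the 0 does not show that Relb-201 was absent. Relb-206 had the opposite pattern to Relb-201, at 6.5%, 4.9% and 3.5% in WT and 18.7%, 19.0% and 11.2% in G643W. The share of Bcl3-201 was nearly constant within each genotype, at 31.3%, 31.9% and 28.7% in WT and 19.8%, 19.5% and 19.6% in G643W. For Nfkb1, transcript 206 took 15.8%, 15.6% and 13.3% in WT and 18.3%, 23.3% and 19.8% in G643W, while transcript 207 took 22.8%, 21% and 21.9% against 18.5%, 16.5% and 18.3%. Tnfaip3-202 rested on larger and more scattered shares, 37.4%, 24.7% and 27.3% in WT and 55.7%, 39.7% and 77.2% in G643W. Tnfaip2-201 and Birc3-201 were lower in G643W by smaller steps, with means of 25.9% and 20.0% for the first and 34.9% and 27.5% for the second. WT library 1 lay near the other WT libraries in the Bcl3 and Nfkb1 shares, unlike in the levels of the members.

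**Figure D5:**
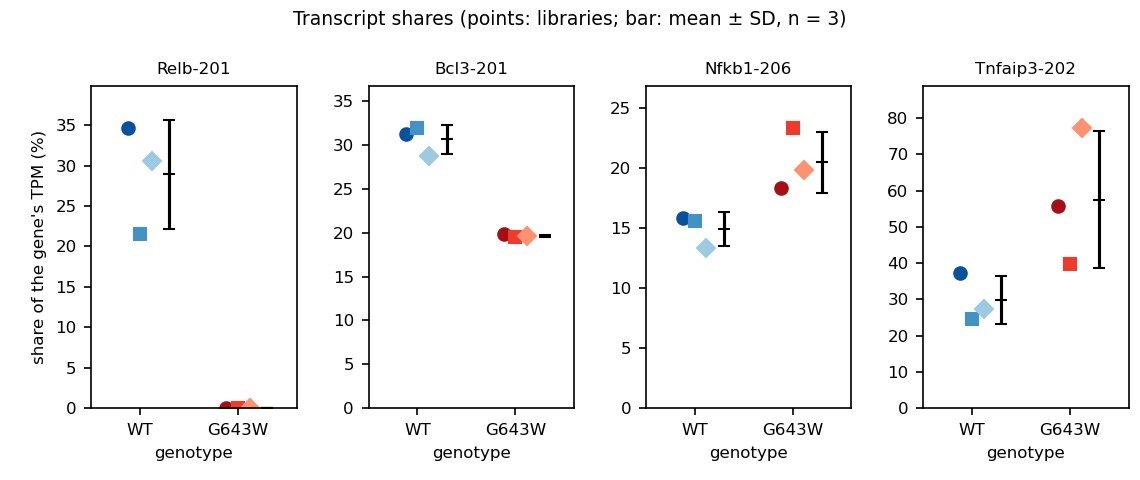
Share of 4 transcripts in the TPM of their genes, as percent, in the 3 WT (blue) and 3 G643W (red) libraries, with the mean ± SD beside the points. Relb-201 is at 0 in G643W, Bcl3-201 is lower, and Nfkb1-206 and Tnfaip3-202 are higher in each G643W library.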

How the data were processed

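RNA from 6 sorted blast samples was made into TruSeq V2 libraries, per the labels' protocols. The authors' deposited tables hold estimated counts and TPM per transcript, made with bcl2fastq and Salmon 0.12.0 on mm10 or GRCm38.p6, per the submitters' processing notes. Not given in the sources used here were Salmon's options, index and strand setting. Genes that overlap on opposite strands may share reads. Of 136288 transcripts, 136176 matched GENCODE M21 and were summed to 53458 genes; the rest held 0.0244% to 0.0365% of reads.

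Estimated counts were rounded and filtered (filterByExpr, minimum count 10), which kept 20654 genes, then fitted with edgeR 4.0.16 (R 4.3.3; TMM scaling, quasi-likelihood test, Benjamini-Hochberg adjustment over all genes tested, threshold 0.05), with genotype as the sole term. The fit was tested on simulated data. CPM are scaled by TMM and judge overlap unless TPM is named. The common biological coefficient of variation was 52.85%. No 2 libraries were duplicates, with a chi-square per gene of at least 194.8. Libraries with the same number do not share a source in the labels, and their deviations correlated at 0.112, -0.165 and 0.176, so the numbers were not taken as pairs. Alternatives used DESeq2 1.42.0, limma 3.58.1, other scalings and filters, and each library left out.

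The members and lists were chosen with earlier results of these data known. Members were described by library where p was under 0.05, groups did not overlap, the range reached 5-fold at a mean of at least 1 TPM, or the level was among the 6 highest. Pathway genes were named by lowest p, up to 5 per direction. Exact permutation tests of 3 against 3 cannot go below 0.1. Promoter sequences are from RefSeq, GRCm38.p6. Some genes are not reported here.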

Additional observations from a re-analysis of the deposited data

How the results depend on the processing

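No member passed the threshold in edgeR with all 6 libraries, where 6 had an unadjusted p under 0.05, and the alternatives changed this in 2 settings. DESeq2 called 1 member (Traf1) and 2 pathway genes (Tnfsf9 and Tnip3), and leaving out G643W library 1 gave 1 member (Cxcl2). Leaving out each library in turn gave 0 to 1 members, 0 pathway genes and a median log2 difference of the members between -0.91 and 0.28, positive only without WT library 1. The other settings kept the median between -0.67 and -0.17, the last with the replicate block, which called 0 members and 0 pathway genes. At an unadjusted p under 0.05, 6 of 28 members in the reported fit became 14 of 32 with no filter and 13 of 30 without WT library 3. With the replicate block 3 of 28 remained, and in the limma fits 1 and 2. The share of all genes at that p was counted only for the reported fit, at 5.78% lower and 3.89% higher. These counts therefore cannot be read as results about the members in the other settings. Over all genes, 25 calls became 427 with DESeq2, 104 with no filter and 0 with the replicate block. In each setting run, 16 of the 28 tested members kept their direction.

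Sign changes touched members with estimates near 0 and members that turned without WT library 1, and the cause was not tested. Over the fits that left out 1 library, the log2 difference ranged from -1.03 to 0.71 for Nfkbiz, -0.89 to 0.38 for Tnfaip3, -2.94 to 1.56 for Cxcl10, -1.81 to 1.81 for Ccl2, -1.75 to 1.34 for Ccl3, -3.74 to 0.87 for Ccl4, -4.31 to 0.43 for Ccl5 and -0.93 to 1.12 for Ptgs2, each highest without WT library 1. It ranged from -0.17 to 0.99 for Il1a and -0.33 to 0.89 for Il1b, also highest there, and from -0.20 to 0.069 for Rela and -0.31 to 0.13 for Birc3, highest without G643W library 1. With the replicate block, Cxcl10 was at 0.36 and Ptgs2 at 0.12. Birc3 and Ptgs2 were at 0.10 and 0.047 with length-scaled counts, 0.14 and 0.067 with limma on log2(TPM + 1), and 0.14 and 0.25 on log2(TPM + 0.1). Il1b was at -0.095 with no scaling factor and at -0.11 and -0.18 in the limma fits. Il6, Il10, Csf2 and Cxcl1 are limited by their few reads.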
